A study of Homo sapiens with 18 samples.

Results

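A375 melanoma cells kept in 1 μM palbociclib for 6 days were compared with A375 cells kept in the solvent dimethyl sulfoxide (DMSO) for the same 6 days, using the gene counts of 4 RNA-seq libraries of a series of 18. The members were chosen by their labels alone: the 2 libraries labelled as control after 6 days (control_6d) and the 2 labelled as CDK4/6 inhibition after 6 days (CDK4/6i_6d). A375 is an established human melanoma line with a BRAF mutation, and palbociclib inhibits the kinases CDK4 and CDK6. All cells grew in RPMI medium with serum, and poly-A RNA was sequenced. The other groups used here as a comparison were A375 cells given DMSO or 1 μM palbociclib for 72 hours, 2 libraries each. A further 2 libraries, of A375 cells given an inhibitor of the arginine methyltransferase PRMT5 for 72 hours, entered the fits but were not compared. The methods give 2 replicates for each culture condition but not whether they were set up as independent experiments. The p-values therefore measure only the spread between libraries, estimated over all A375 libraries fitted. The 72-hour groups varied less, with a biological coefficient of variation from 0.068 to 0.118, against 0.297 in control_6d. The shared estimate can thus understate the spread in control_6d. With the 4 compared libraries fitted alone, 5862 genes were differentially expressed in place of 8928. Each group is 1 cell line, and in bulk RNA fewer transcribing cells and less RNA per cell cannot be told apart.

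CDK4 and CDK6 bind D-type cyclins and phosphorylate the retinoblastoma protein RB1 and its relatives. Phosphorylated RB1 releases the E2F transcription factors, which switch on genes for DNA replication. Later in the cycle the MuvB complexes, with B-MYB and FOXM1, drive the genes of mitosis through a promoter sequence called the CHR. Inhibitors of these kinases hold cells before S phase, and long arrest can pass into senescence, a stable arrest in which cells enlarge, lose the nuclear lamina protein lamin B1 and secrete cytokines and proteases.

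The 4 libraries held between 29199890 and 36036772 counts. The retained melanocytic genes of the line were present: S100B, a marker of neural crest derivatives, had between 28.9 and 115 CPM (counts scaled to library size) over the 4 libraries, and the lineage factor MITF between 85.0 and 218. Pigment genes were low, with PMEL between 0.81 and 2.54 CPM and TYR between 0.67 and 5.17. Of 12 markers of blood, endothelium and epithelium listed, 7 were in the table, their summed level ran from 4.96 to 15.2 CPM in control_6d and from 12.9 to 15.9 CPM in CDK4/6i_6d, and none of the 7 passed the test with all libraries. The highest of these was KRT14, at 1.58 and 11.3 CPM in control_6d and 7.32 and 10.4 CPM in CDK4/6i_6d, and it passed without the second control_6d library (2.49, edgeR adjusted p = 3.85e-05). The leukocyte marker PTPRC stayed between 0.35 and 0.61 CPM, and CD14 between 0.13 and 0.31 CPM.

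After 6 days of palbociclib, 8928 of 20705 genes (43.1%) were differentially expressed at an adjusted p under 0.05 (DEGs), 4512 (21.8%) up-regulated and 4416 (21.3%) down-regulated, with a median log2 fold change of 0.10 over all genes. Test and adjustment were edgeR's quasi-likelihood test and the Benjamini-Hochberg method, as in every adjusted p that follows. The direction of a change followed the GC content of the transcript. Up-regulated DEGs had a median GC content of 55.2% and down-regulated DEGs 40.1%, against 47.6% for all genes with a GC value. In the GC-poorest decile of genes 21 were up-regulated and 1065 down-regulated, and in the GC-richest decile 610 were up-regulated and 97 down-regulated. The control_6d libraries carried the steepest trend. There the level of GC-rich genes minus that of GC-poor genes, relative to the A375 median, was -2.44 and -1.22 on the log2 scale. It was -0.37 and -0.39 in the CDK4/6i_6d libraries and between 0.04 and 0.63 in the 72-hour libraries. The 72-hour change by palbociclib followed GC content too, with decile medians from -0.29 to 0.25. Its rank correlation with GC content was 0.30, against 0.60 for the 6-day change. The spread within control_6d was also wider, with a biological coefficient of variation of 0.297 against 0.16 in CDK4/6i_6d. The source of the trend was not tested.

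**Figure D1:**
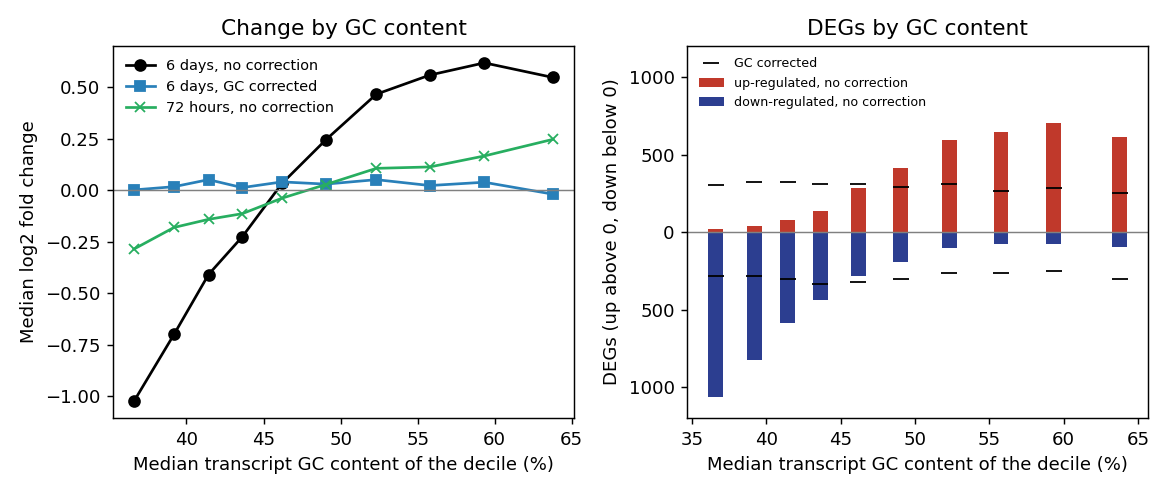
Left, median log2 fold change (y axis) in each decile of 13444 genes ordered by transcript GC content (x axis, %), at 6 days without correction (circles), at 6 days after the GC correction (squares) and at 72 hours without correction (crosses). Right, number of DEGs at 6 days in each decile, up-regulated above 0 and down-regulated below 0, as bars without correction and dashes after correction. The medians climb from -1.02 to 0.55 without correction and stay between -0.02 and 0.05 with it.

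A second fit therefore removed a smooth curve of GC content from each library, and with it any change following GC content, whatever its source. It held 13444 genes and called 5869 (43.7%), with 2968 (22.1%) up-regulated and 2901 (21.6%) down-regulated. Of the 7070 DEGs of the first fit that had a GC value, 1935 were up-regulated and 1975 down-regulated in both fits, 102 turned from down-regulated to up-regulated and none turned the other way. The counts for each gene list are given in both fits below, the GC-corrected ones over the members with a GC value. Another reading set the CDK4/6i_6d libraries against the control_72h libraries, which lack the steep trend but differ from them in time and in library set. There 16.2% of genes were up-regulated and 15.0% down-regulated. The 2 control_6d libraries also weighed on the counts: without the first of them 17.0% of all genes were up-regulated and 17.3% down-regulated, and without the second 29.5% and 26.0%, the shares to set beside each count given without one of them.

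The targets of the drug did not move as a block. CCND1, the cyclin D1 gene, had 353 and 457 CPM in the control_6d libraries and 741 and 813 CPM in the CDK4/6i_6d libraries. Both treated libraries lay above both controls (log2 fold change 0.94, SE 0.19, adjusted p = 0.00134), and the rise held after GC correction (0.62, adjusted p = 0.0036). CDK6 fell from 1209 and 1057 to 546 and 666 CPM (-0.90, adjusted p = 0.00137), but after GC correction its change of -0.29 did not pass (adjusted p = 0.121). CDK4 rose from 33.5 and 55.1 to 76.5 and 64.1 CPM (0.67, adjusted p = 0.0223), a call also lost after GC correction (0.26, adjusted p = 0.164). Against the 72-hour controls CDK4 was lower by 0.86 on the log2 scale (adjusted p = 0.00681). CCND3 did not pass (22.9 and 37.1 against 42.1 and 40.7 CPM). The cyclin D2 gene CCND2 was at or under the floor of 3 counts per library in both controls, with 0 and 2 counts, and had 3 and 4 counts in CDK4/6i_6d.

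Of the pocket proteins that restrain E2F, RB1 had 480 and 256 CPM in control_6d and 134 and 105 CPM in CDK4/6i_6d. Its fall of 1.62 on the log2 scale (adjusted p = 0.000137) shrank to 0.67 after GC correction (adjusted p = 0.00401), and against the 72-hour controls the difference was -0.01 (adjusted p = 0.989). RBL1, which encodes p107 and is itself an E2F target, went from 112 and 100.5 to 39.7 and 37.6 CPM. It was lower in each reading: -1.46 (adjusted p = 1.67e-05), -0.88 after GC correction (adjusted p = 0.000259) and -1.39 against the 72-hour controls (adjusted p = 1.12e-05). In the list of D cyclins, CDK4/6 and pocket proteins, 2 of 8 members rose and 3 fell, and after GC correction 1 of 7 rose and 2 fell.

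The CDK inhibitor genes split. CDKN1A, which encodes the CDK inhibitor p21, rose from 62.3 and 133 to 224 and 265 CPM (1.32, SE 0.28, adjusted p = 0.00155, and 0.78 after GC correction, adjusted p = 0.00907). CDKN2C, which encodes the CDK4/6 inhibitor p18, fell from 48.9 and 47.8 to 14.6 and 10.9 CPM (-1.92, adjusted p = 6.95e-06). CDKN1B, which encodes p27, fell from 119 and 72.8 to 36.6 and 28.2 CPM (-1.57, adjusted p = 0.000101). CDKN1C, which encodes p57, fell from 9.60 and 9.41 to 2.77 and 1.67 CPM (-2.10, adjusted p = 0.000118). The 3 falls held after GC correction, with changes of -2.58, -1.24 and -2.76, and against the 72-hour controls. At 72 hours CDKN1A was already up-regulated by 1.52 (adjusted p = 0.00215), while CDKN1B (-0.41, adjusted p = 0.259) and CDKN1C (-0.23, adjusted p = 0.688) did not pass.

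**Figure D2:**
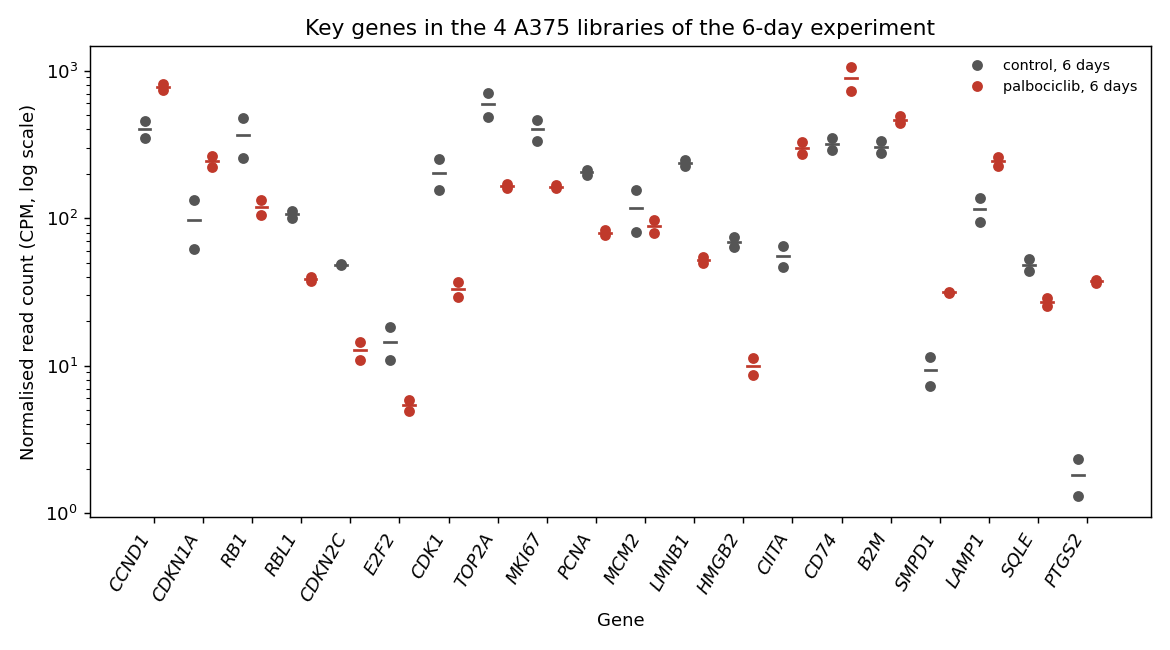
Normalised read count (CPM, log scale, y axis) of 20 genes named in the text (x axis) in the 2 control_6d libraries (grey) and the 2 CDK4/6i_6d libraries (red). Each point is a library and each short line the mean of 2 libraries; MCM2 is the gene shown whose groups overlap, with 80.3 and 155 CPM against 96.8 and 79.5 CPM.

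Among the E2F factors, the activator E2F2 went from 10.9 and 18.3 CPM to 5.85 and 4.97 CPM (-1.43, adjusted p = 0.000592, and -2.0 after GC correction, adjusted p = 8e-05). E2F1 had 20.9 and 40.5 CPM in control_6d and 26.2 and 26.6 CPM in CDK4/6i_6d, so the groups overlapped. It did not pass without correction (-0.22, adjusted p = 0.509) and fell after it (-0.79, adjusted p = 0.00349), and its transcript has a GC content of 61.6%. Of 9 E2F and DP genes, 1 rose (11.1%) and 2 fell (22.2%) in the first fit, against 21.8% and 21.3% of all genes. In the GC-corrected fit none rose and 3 fell (33.3%), against 22.1% and 21.6% of all genes.

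Origin licensing genes load the MCM helicase onto DNA. Of 25 in the table, 15 fell and none rose, with a median of -0.67, and after GC correction again 15 fell and none rose (median -0.65), but the genes overlapped in part, with 10 down-regulated in both fits. GMNN, which encodes the licensing inhibitor geminin, showed the largest fall, from 63.7 and 48.5 to 13.7 and 12.9 CPM (-2.07, adjusted p = 6.6e-06). CDC45, part of the active helicase, fell from 24.1 and 36.4 to 16.7 and 16.2 CPM (-0.88, adjusted p = 0.00325). The helicase subunits MCM2 and MCM5 have GC contents of 57.4% and 57.0%, and their control libraries were far apart: MCM5 had 39.8 and 82.4 CPM in control_6d against 57.8 CPM in each CDK4/6i_6d library. Neither passed in the first fit (MCM2 adjusted p = 0.18, MCM5 adjusted p = 0.826), and both fell after GC correction, by 0.97 (adjusted p = 0.000644) and 0.61 (adjusted p = 0.00717). In the first fit the sign for MCM5 rested on a single library: its change was -0.08 with all libraries and 0.54 without the second control_6d library. The loader CDC6 passed in neither fit (59.0 and 80.9 against 63.1 and 49.6 CPM).

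Genes of the replication fork and of nucleotide supply moved the same way, with 21 of 35 down-regulated and none up-regulated (median -0.94), and 28 of 35 after GC correction. Without the second control_6d library 19 fell and 7 rose. The sliding clamp PCNA had 214 and 197 CPM in control_6d and 82.6 and 76.7 CPM in CDK4/6i_6d, about the same in the libraries of a group and far apart between groups (-1.36, SE 0.19, adjusted p = 8.23e-05). RRM2, the ribonucleotide reductase subunit made in S phase, fell from 219 and 260 to 103 and 98.1 CPM (-1.25, adjusted p = 0.000281), and the DNA polymerase epsilon subunit POLE2 from 28.3 and 22.0 to 6.03 and 6.03 CPM (-2.06, adjusted p = 1.01e-05). Thymidine kinase TK1 also fell, from 35.1 and 75.0 to 30.6 and 31.3 CPM (-0.83, adjusted p = 0.0166, and -1.38 after GC correction, adjusted p = 0.000154). In the first fit without the second control_6d library, however, the TK1 change was -0.18. Thymidylate synthase TYMS, with 15.5 and 17.3 against 11.4 and 12.1 CPM, did not pass in the first fit (-0.48, adjusted p = 0.0613) and fell after GC correction (-0.71, adjusted p = 0.00319).

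The E2F sequence was then searched in the promoters of these replication genes. The letters searched on both strands were TTTCCCGC, TTTCGCGC, TTTGCCGC and TTTGGCGC, in the window from 250 bases before to 50 bases after the start site in RefSeq on GRCh38.p14. A match was found in 10 of 21 licensing promoters (47.6%) and 10 of 29 fork promoters (34.5%), against 3.33% of all 27305 promoters and 5.17% of 10538 promoters of genes in the GC-corrected fit. Of 1534 promoters of genes down-regulated in both fits 7.76% held a match, and of 1514 of genes up-regulated in both fits 3.37%. The 2 fork genes with the largest falls in both fits and a match before the start are shown, with the match in capitals. PCNA is on the minus strand at chr20:5126623-5126742, and RFC3, a subunit of the clamp loader, on the plus strand at chr13:33818029-33818148. RFC3 fell from 308 and 226 to 115 and 110 CPM (-1.25, adjusted p = 0.000126).
PCNA: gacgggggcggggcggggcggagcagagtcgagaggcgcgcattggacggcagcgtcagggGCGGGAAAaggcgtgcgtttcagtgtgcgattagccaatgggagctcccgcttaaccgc
RFC3: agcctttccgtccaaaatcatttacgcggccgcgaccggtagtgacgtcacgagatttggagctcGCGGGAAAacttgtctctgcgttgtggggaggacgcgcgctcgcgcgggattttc
These matches are a description of the letters and were not measured for binding.

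The mitotic genes fell almost throughout. Of 71 in the table, 61 fell and none rose in the first fit (median -1.18), and 65 fell and none rose after GC correction (median -1.02), with 57 down-regulated in both. CDK1, the kinase that starts mitosis, had 250 and 154 CPM in control_6d and 37.1 and 29.5 CPM in CDK4/6i_6d, the largest fall of the list (-2.60, SE 0.23, adjusted p = 2.77e-06). TOP2A, which untangles chromosomes, fell from 711 and 483 to 171 and 159 CPM (-1.85, adjusted p = 1.67e-05), and the proliferation marker MKI67 from 336 and 464 to 167 and 159 CPM (-1.30, adjusted p = 0.000158). The transcription factor FOXM1 fell from 28.8 and 53.2 to 23.6 and 22.0 CPM (-0.84, adjusted p = 0.0101), and the kinase PLK1 from 38.2 and 72.8 to 33.5 and 31.4 CPM (-0.77, adjusted p = 0.0195). Without the second control_6d library neither passed, at -0.34 (adjusted p = 0.0862) for FOXM1 and -0.24 (adjusted p = 0.266) for PLK1. CCNB1, the cyclin B1 gene, fell from 123 and 145 to 82.9 and 75.8 CPM (-0.75, adjusted p = 0.00407), and after GC correction its change of -0.39 did not pass (adjusted p = 0.0901). The 10 members that did not pass in the first fit included CDC25B (0.33) and CDC20 (-0.05), which fell after GC correction (-0.59, adjusted p = 0.0199). In the first fit, without GC correction, the sign for CDC20 turned with the control library left out, at -0.50 without the first and 0.61 without the second.

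The CHR letters, TTTGAA or TTCGAA on either strand, were in 41 of 59 promoters of the mitotic list (69.5%), against 16.6% of all promoters and 11.5% of those of genes in the GC-corrected fit. Counting only the bases before the start site the shares were 45.8%, 14.6% and 10.0%. The fork promoters held them in 3.45% of cases. They were not particular to the mitotic list, being in 40.4% of histone promoters. In the class II list, which mostly rose, 5 of 14 promoters (35.7%) held them. CDK1 and ASPM, a spindle pole protein, are the mitotic genes with the largest falls in both fits and a match before the start. ASPM fell from 1193 and 740 to 176 and 150 CPM (-2.57, adjusted p = 2.81e-06). The stretches lie at chr10:60778113-60778232 on the plus strand and chr1:197146720-197146839 on the minus strand of GRCh38.p14, with the matching letters in capitals. These are matches of letters only, not measured for binding or checked against a mapped CHR.
CDK1: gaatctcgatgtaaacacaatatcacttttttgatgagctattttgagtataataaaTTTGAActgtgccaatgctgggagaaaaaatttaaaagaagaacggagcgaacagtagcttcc
ASPM: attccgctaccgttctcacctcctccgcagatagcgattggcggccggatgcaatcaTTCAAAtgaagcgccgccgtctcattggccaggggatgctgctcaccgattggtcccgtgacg

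Genes of homologous recombination and the replication checkpoint followed, with 24 of 36 down-regulated and 1 up-regulated (ATRIP, 0.62, not called after GC correction), and 27 of 35 down-regulated and 1 up-regulated after it. BARD1, the partner of BRCA1, fell the most, from 80.8 and 56.8 to 10.7 and 10.3 CPM (-2.71, SE 0.20, adjusted p = 1.24e-06). BRCA1 itself fell from 139 and 129 to 71.0 and 65.8 CPM (-0.97, adjusted p = 0.000333). The checkpoint kinase CHEK1 fell too (-1.35, adjusted p = 4.49e-05), and all 3 of these falls held after GC correction.

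Replication-dependent histone genes package newly made DNA and their transcripts mostly end without a poly-A tail, so poly-A libraries hold only a part of them. Of 61 in the table, 56 fell and none rose (median -1.75), and 52 of 56 with a GC value fell after correction (median -2.21). HIST2H3C, with 5.27 and 12.1 CPM in control_6d and 1.01 and 0.59 CPM in CDK4/6i_6d, showed the largest called fall (-3.44, adjusted p = 2.4e-05). Near-identical copies share reads in this family, so the value of a single histone gene is uncertain. The 5 members that did not pass were HIST1H1T, HIST1H2AC, HIST1H3E, HIST3H3 and HIST4H4.

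Of 12 nuclear genes linked to senescence, 9 fell and none rose, and after GC correction 10 fell and none rose. LMNB1, which encodes lamin B1, went from 247 and 228 CPM to 54.8 and 49.5 CPM, and the groups were far apart (-2.19, SE 0.18, adjusted p = 2.69e-06, and -2.58 after GC correction, adjusted p = 1.8e-05). HMGB2, a chromatin protein lost in senescent cells, went from 75.0 and 64.0 to 11.3 and 8.71 CPM (-2.80, adjusted p = 2.41e-06). EZH2, the histone H3 lysine 27 methyltransferase, fell from 126 and 114 to 36.2 and 39.9 CPM (-1.66, adjusted p = 6.95e-06). These 3 falls held in both fits and against the 72-hour controls.

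The next 4 stress-response genes are given singly, with no count of a list. PLK3, a stress kinase, rose from 4.92 and 10.1 to 21.3 and 25.9 CPM (1.66, SE 0.28, adjusted p = 0.000369). MDM2, a ubiquitin ligase, had 227 and 217 CPM in control_6d and 246 and 297 CPM in CDK4/6i_6d. Its change of 0.29 did not pass (adjusted p = 0.21), but it rose after GC correction (0.92, adjusted p = 0.00169) and against the 72-hour controls (0.75, adjusted p = 0.00506). GDF15, a secreted stress factor, went from 5.08 and 4.27 to 6.98 and 7.51 CPM (0.63, adjusted p = 0.0408). Its call was lost after GC correction (-0.03, adjusted p = 0.936), and against the 72-hour controls it was lower (-1.02, adjusted p = 0.00301). PPM1D, a phosphatase that ends the DNA damage response, fell from 78.95 and 60.5 to 41.1 and 40.6 CPM (-0.77, adjusted p = 0.00371).

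Of 32 secretory senescence factors 14 rose and 4 fell (median 0.40), and of 29 with a GC value 12 rose and 4 fell after correction, with 10 up-regulated and 1 down-regulated in both fits. Against the 72-hour controls the balance was the opposite, with 7 up-regulated, 11 down-regulated and a median of -0.23. PLAT, tissue plasminogen activator, rose from 43.1 and 64.5 to 223 and 341 CPM (2.39, SE 0.25, adjusted p = 1.02e-05). IGFBP7, which binds insulin-like growth factors, fell from 33.2 and 25.7 to 19.6 and 16.6 CPM (-0.71, adjusted p = 0.00812). Among the cytokines, IL1A rose from 21.8 and 16 to 28.2 and 45.7 CPM (0.96, adjusted p = 0.00753, and 1.71 after GC correction, adjusted p = 0.00056). IL1B (0.91, adjusted p = 0.0212) rose in the first fit and did not pass after correction (0.81, adjusted p = 0.0565), and CCL2 (1.75, adjusted p = 0.01) rose in the first fit and has no GC value. IL6 had 0 and 2 counts in control_6d and 0 and 2 counts in CDK4/6i_6d, at or under the floor in all 4 libraries. IL8 had overlapping groups (18.3 and 8.78 against 20.3 and 14.0 CPM, adjusted p = 0.388) and passed only after GC correction (1.80, adjusted p = 0.000465), its transcript having a GC content of 32.5%.

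Of 17 matrix proteases and their inhibitors, 8 rose and 3 fell, and of 48 collagens, laminins, integrins and other matrix genes 13 rose and 8 fell. These are 47.1% and 27.1% up-regulated and 17.65% and 16.7% down-regulated, against 21.8% and 21.3% of all genes. The second list was thus near the share of all genes. After GC correction 6 of 15 and 13 of 46 rose and 2 and 9 fell, against 22.1% and 21.6% of all genes. Against the 72-hour controls 7 and 15 rose and 4 and 14 fell. The summed level of the protease list was lower after treatment, at 2768 and 1768 against 1429 and 1494 CPM. MMP8, neutrophil collagenase, rose from 3.44 and 2.15 to 21.6 and 7.01 CPM (2.35, SE 0.45, adjusted p = 0.00078), and the aggrecan-cleaving ADAMTS5 fell from 2.51 and 1.31 to 0.26 and 0.64 CPM (-2.07, adjusted p = 0.00212). COL7A1, the anchoring fibril collagen, rose from 8.73 and 15.9 to 53.3 and 43.6 CPM (1.98, adjusted p = 4.04e-05). ITGA9 fell from 25.3 and 14.9 to 5.74 and 4.44 CPM (-1.98, adjusted p = 0.000184), while its difference from the 72-hour controls was 0.79 in the other direction (adjusted p = 0.0805). Fibronectin FN1 had overlapping groups (86.6 and 90.8 against 111 and 74.8 CPM, adjusted p = 0.824), as did integrin beta 3, ITGB3 (202 and 156 against 275 and 193 CPM, adjusted p = 0.131).

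Antigen presentation genes rose together. Of 17 genes of MHC class II presentation, which shows peptides to helper T cells, 15 rose and 2 fell (median 1.90), against 21.8% up-regulated among all genes, and of the 14 with a GC value 11 rose and 2 fell after correction. CIITA, the master activator of the class II genes, had 46.9 and 64.8 CPM in control_6d and 327 and 272 CPM in CDK4/6i_6d, with both treated libraries several times above both controls (2.43, SE 0.21, adjusted p = 2.77e-06, and 1.97 after GC correction, adjusted p = 2.01e-05). CD74, the invariant chain, rose from 288 and 348 to 1054 and 728 CPM (1.49, adjusted p = 0.000197). HLA-DOA, part of a regulator of peptide loading, rose from 2.01 and 2.02 to 26.0 and 15.5 CPM (3.36, SE 0.32, adjusted p = 5.04e-06). The antigen-presenting chain HLA-DRA rose from 113 and 104 to 550 and 339 CPM (2.03, adjusted p = 3.5e-05). The exceptions were RFXAP, a subunit of the RFX factor that works with CIITA, which fell from 30.4 and 19.8 to 11.5 and 10.6 CPM (-1.18, adjusted p = 0.00119), and HLA-DMA, which fell from 7.37 and 5.28 to 3.20 and 2.99 CPM (-1.03, adjusted p = 0.012). Against the 72-hour controls the difference for RFXAP was 0.07 (adjusted p = 0.862). HLA genes are near-identical in places, and how reads divide between them is uncertain. The marker of leukocytes PTPRC was under 1 CPM in all 4 libraries, as given above.

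Class II promoters carry a Y box that reads CCAAT on the opposite strand. CCAAT on either strand was in 11 of 14 promoters of the list (78.6%), against 35.7% of all promoters and 36.6% of those of genes in the GC-corrected fit. The stretches of the list's largest rises in both fits with a match are shown with CCAAT, read as ATTGG on this strand, in capitals. HLA-DOA lies at chr6:33009596-33009715 and HLA-DRB5, which rose from 2.35 and 3.56 to 22.8 and 16.6 CPM (2.74, adjusted p = 3.8e-05), at chr6:32530315-32530434, both on the minus strand of GRCh38.p14.
HLA-DOA: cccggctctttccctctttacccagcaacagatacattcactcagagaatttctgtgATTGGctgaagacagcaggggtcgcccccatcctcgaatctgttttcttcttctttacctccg
HLA-DRB5: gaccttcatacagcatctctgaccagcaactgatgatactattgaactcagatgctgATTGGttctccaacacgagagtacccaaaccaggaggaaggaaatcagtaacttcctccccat
The motif is common, and CCAAT was also in 72.9% of the promoters of the mitotic list.

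MHC class I presentation, which shows peptides to cytotoxic T cells, had 14 of 19 members up-regulated and none down-regulated (median 0.79), and 12 up-regulated and none down-regulated after GC correction (median 0.50). The light chain B2M rose from 336 and 277 to 491 and 440 CPM (0.60, adjusted p = 0.0196). HLA-F, a class I gene of low level here, rose from 0.68 and 0.44 to 3.37 and 2.09 CPM (2.27, adjusted p = 0.000352). Set against the 72-hour controls the list lost its direction, with 5 members up-regulated, 2 down-regulated and a median of -0.09.

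Interferon-stimulated and nucleic acid sensing genes differed between the fits. In the first fit 8 of 40 were up-regulated and 5 down-regulated, under the shares of all genes. After GC correction 16 of 35 rose (45.7%, against 22.1% of all genes in that fit) and 4 fell, and 6 rose and 3 fell in both fits. Without the first and the second control_6d library 12 and 13 rose. ISG15, a ubiquitin-like protein, rose from 2.79 and 4.84 to 9.75 and 9.35 CPM (1.33, adjusted p = 0.000913), and the antiviral gene OASL from 0.46 and 0.64 to 1.44 and 1.90 CPM (1.59, adjusted p = 0.00118). OASL was, however, lower than in the 72-hour controls (-1.97, adjusted p = 5.72e-05). HERC5, the ligase for ISG15, fell from 10.6 and 7.19 to 2.94 and 2.82 CPM (-1.63, adjusted p = 0.000344), and IFI27 did not pass (0.56 and 0.50 against 0.43 and 1.12 CPM).

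Most lysosome and autophagy genes rose, though by share fewer than in the class II (88.2%) and class I (73.7%) lists. Of 53, 33 rose (62.3%) and 1 fell (median 0.92), against 21.8% up-regulated and 21.3% down-regulated among all genes. After GC correction 33 of 52 rose (63.5%) and 2 fell (median 0.59), against 22.1% and 21.6% of all genes, with 26 up-regulated in both fits. SMPD1, acid sphingomyelinase, rose the most, from 7.34 and 11.4 to 31.6 and 31.2 CPM (1.75, SE 0.22, adjusted p = 3.34e-05). LAMP1, the abundant lysosomal membrane protein, rose from 93.8 and 137 to 261 and 226 CPM (1.08, adjusted p = 0.00106). The protease gene CTSD had 0.46 and 0.91 CPM in control_6d and 1.27 and 2.15 CPM in CDK4/6i_6d (1.32, adjusted p = 0.0155), a rise not called after GC correction (0.75, adjusted p = 0.0883). GLB1, which encodes the beta-galactosidase stained in senescent cells, did not pass (97.7 and 86.0 against 118 and 108 CPM, adjusted p = 0.149). The fall was ATG5 (-0.92), which was not called after GC correction. Against the 72-hour controls 28 of the 53 were up-regulated and 2 down-regulated.

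Many lysosomal genes carry the CLEAR element, bound by TFEB and its relatives. Its core TCACGTG, on either strand, was in 10 of 38 promoters of the list (26.3%), against 3.82% of all promoters and 5.47% of those of genes in the GC-corrected fit. It was in 5.75% of promoters of genes up-regulated in both fits and 5.22% of those down-regulated in both. Of the translation initiation factor promoters 7 of 31 (22.6%) held it too. The lysosomal enzymes NEU1 and CTSA had the largest rises in both fits among genes with a match before the start. NEU1 rose from 9.48 and 16.1 to 45.2 and 40.3 CPM (1.74, adjusted p = 7.4e-05), and its stretch is chr6:31862885-31863004 on the minus strand. CTSA, which protects NEU1 from breakdown, rose from 29.6 and 41.1 to 112 and 106 CPM (1.63, adjusted p = 1.6e-05), and its stretch is chr20:45891215-45891334 on the plus strand, both on GRCh38.p14 with the matches in capitals.
NEU1: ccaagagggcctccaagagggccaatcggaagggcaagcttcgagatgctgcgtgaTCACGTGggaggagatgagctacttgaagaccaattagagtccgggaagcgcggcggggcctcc
CTSA: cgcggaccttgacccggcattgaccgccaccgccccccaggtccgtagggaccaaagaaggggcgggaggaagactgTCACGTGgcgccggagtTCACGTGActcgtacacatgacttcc
The second stretch in capitals for CTSA reads as the core on both strands.

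The cell state lists moved less evenly. The melanocyte list had 27.3% of members up-regulated and 22.7% down-regulated, near the 21.8% and 21.3% of all genes. Of 22 melanocyte lineage and pigmentation genes 6 rose and 5 fell, with 9 and 4 without the first control_6d library and 5 and 9 without the second, and after GC correction 5 of 16 rose and 3 fell. MITF fell from 218 and 152 to 93.4 and 85.0 CPM (-1.05, SE 0.19, adjusted p = 0.000499, and -0.58 after GC correction, adjusted p = 0.00139). S100B rose from 46.2 and 28.9 to 115 and 79.6 CPM (1.37, adjusted p = 0.000333). PMEL, a melanosome structural protein, rose from 0.81 and 0.91 to 1.84 and 2.54 CPM (1.35, adjusted p = 0.00613), a call lost after GC correction (0.83, adjusted p = 0.0578). The transporter SLC45A2 rose from 1.70 and 1.88 to 7.06 and 9.96 CPM (2.25, adjusted p = 2.8e-05), and SLC24A5 fell from 4.40 and 2.96 to 0.69 and 0.59 CPM (-2.52, adjusted p = 0.00014). Tyrosinase TYR lay far apart in the controls (5.17 and 0.67 against 2.25 and 0.95 CPM) and did not pass (adjusted p = 0.299).

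Of 31 genes of the dedifferentiated melanoma state and YAP targets, 13 fell and 2 rose (median -0.44), and after GC correction 15 fell and 3 rose, with 11 down-regulated and 2 up-regulated in both fits. Without the second control_6d library 14 fell and 7 rose. EGFR fell from 92.5 and 118 to 49.3 and 66.2 CPM (-0.87, adjusted p = 0.00211). NRG1, a ligand of ERBB receptors, fell from 44.04 and 71.5 to 7.15 and 23.1 CPM (-1.93, adjusted p = 0.000706). The receptor kinase AXL, with 249 and 313 against 192 and 223 CPM, did not pass in the first fit (-0.44, adjusted p = 0.0695) but fell after GC correction (-0.95, adjusted p = 0.000407). TGFBI, a matrix protein induced by TGF-beta, rose from 151 and 126 to 514 and 370 CPM (1.68, adjusted p = 2.84e-05). The neural crest receptor NGFR differed as much between libraries of a group as between groups (0.40 and 3.23 against 0.84 and 3.07 CPM).

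MAPK pathway output genes, which read signalling through mutant BRAF, did not move in a common direction. Of 24, 6 rose (25.0%) and 5 fell (20.8%), near the 21.8% and 21.3% of all genes. After GC correction 1 of 22 rose and 5 fell, against 22.1% and 21.6% of all genes. DUSP6 (334 and 181 against 350 and 280 CPM, adjusted p = 0.348), SPRY4 (292 and 187 against 337 and 233 CPM, adjusted p = 0.427) and ETV5 (116 and 103 against 107 and 103 CPM, adjusted p = 0.809) had overlapping groups. MYC had 12.2 and 12.3 CPM in control_6d and 23.4 and 13.2 CPM in CDK4/6i_6d and did not pass (adjusted p = 0.06). The cytokine LIF rose from 18.2 and 43.4 to 82.7 and 102 CPM (1.58, adjusted p = 0.000622), and the feedback inhibitor SPRY1 fell from 12.9 and 6.96 to 3.78 and 1.79 CPM (-1.84, adjusted p = 0.000522).

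Metabolic lists depended on the control used. Of 22 glycolysis genes 12 rose and none fell in the first fit (median 0.64), 4 rose and 1 fell after GC correction, and 2 rose and 9 fell against the 72-hour controls (median -0.50). PFKFB4, which sets the level of an activator of glycolysis, rose in all 3 readings, from 162 and 137 to 665 and 491 CPM (1.95, SE 0.20, adjusted p = 8.76e-06). Hexokinase HK2 rose from 113 and 106 to 219 and 133 CPM (0.68, adjusted p = 0.0165), a call lost after GC correction (0.32, adjusted p = 0.211). Without the first control_6d library 6 of the 22 rose and without the second 16. Of 66 nuclear genes of oxidative phosphorylation 12 rose and 8 fell, with 3 and 7 without the first control_6d library and 28 and 8 without the second. With all libraries the shares were 18.2% and 12.1%, under the 21.8% and 21.3% of all genes. After GC correction 16 rose (24.2%) and 7 fell (10.6%), against 22.1% and 21.6% of all genes. Against the 72-hour controls none rose and 7 fell (median -0.28). The complex I subunit NDUFV1 rose from 42.7 and 63.9 to 100.2 and 91.9 CPM (0.85, adjusted p = 0.00269) and another subunit, NDUFA5, fell from 159 and 106 to 41.5 and 35.7 CPM (-1.78, adjusted p = 2.6e-05). Their transcripts have GC contents of 59.4% and 34.1%, and after GC correction the changes were 0.24 (adjusted p = 0.0479) and -0.54 (adjusted p = 0.00842).

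The mitochondrial genome stood apart from the nuclear genes. Of its 13 protein-coding genes 12 fell and none rose (median -2.37), and the 12 falls held after GC correction (median -2.39) and without either control_6d library. MT-ND3, a complex I subunit, had 70.1 and 55.7 CPM in control_6d and 4.50 and 2.46 CPM in CDK4/6i_6d (-4.18, SE 0.38, adjusted p = 3.1e-06). MT-ATP6, an ATP synthase subunit, had 421 and 422 CPM in control_6d and 50.2 and 24.6 CPM in CDK4/6i_6d (-3.49, adjusted p = 6.3e-06). MT-CO1, a subunit of cytochrome oxidase, had overlapping groups (3322 and 2570 against 4013 and 3139 CPM) and did not pass (adjusted p = 0.322). It made up most of the mitochondrial mRNA in CDK4/6i_6d, where the 13 genes summed to 5497 and 4117 CPM, against 8405 and 7660 CPM in control_6d. The level of MT-ATP6 in the 72-hour controls was 53.05 and 53.4 CPM, close to the treated 6-day libraries, and against those controls 1 of 13 genes fell and none rose (median -0.12). At 72 hours 6 of the 13 were up-regulated by the drug and none down-regulated. The 2 control_6d libraries thus held the high values, and the CDK4/6i_6d libraries came from the same time and library set. What gave the high values was not tested.

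**Figure D3:**
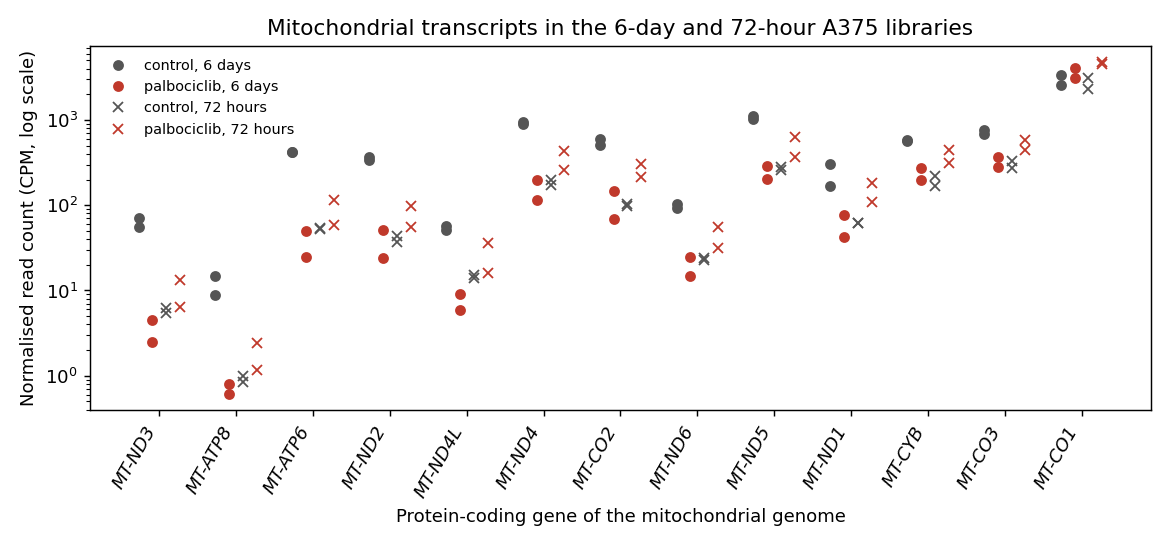
Normalised read count (CPM, log scale, y axis) of the 13 protein-coding genes of the mitochondrial genome (x axis, ordered by their change at 6 days) in control (grey) and palbociclib (red) libraries at 6 days (circles) and 72 hours (crosses), with 2 libraries a group. For 12 genes both control_6d points lie above both CDK4/6i_6d points, while those of MT-CO1 overlap.

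Cholesterol and fatty acid synthesis genes leaned downwards, with 14 of 31 down-regulated and 3 up-regulated (median -0.40), and 17 of 30 down-regulated and none up-regulated after GC correction, with 11 down-regulated in both fits. Over all genes 21.3% fell in the first fit and 21.6% after correction. Without the first control_6d library 1 member rose and 16 fell, and without the second 9 rose and 14 fell. Squalene epoxidase SQLE fell from 52.9 and 44.2 to 28.8 and 25.3 CPM (-0.84, adjusted p = 0.00309). STARD4, a cholesterol carrier, fell from 140 and 80.9 to 14.9 and 13.0 CPM (-2.98, adjusted p = 2.72e-06).

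The ATF4 stress response had 10 of 28 members up-regulated and 2 down-regulated, and 9 of 27 up-regulated and 2 down-regulated after GC correction, with 3 up-regulated in both fits. The number that rose was 5 without the first control_6d library and 15 without the second. ATF4 itself did not pass (58.7 and 93.1 against 97.0 and 86.8 CPM, adjusted p = 0.298), and neither did ASNS, asparagine synthetase, in the first fit (31.4 and 26.4 against 36.9 and 35.2 CPM, adjusted p = 0.193), but ASNS rose after GC correction (0.62, adjusted p = 0.00617). The hormone gene STC2 rose from 11.3 and 17.6 to 36.8 and 43.3 CPM (1.47, adjusted p = 0.000155). DDIT3, which encodes CHOP, rose from 3.03 and 3.50 to 5.02 and 7.14 CPM (0.90, adjusted p = 0.0196), a call lost after GC correction (0.61, adjusted p = 0.0877). CEBPB fell from 12.3 and 17.95 to 10.0 and 8.09 CPM (-0.74, adjusted p = 0.0353). Against the 72-hour controls 2 members were up-regulated and 13 down-regulated (median -0.47), the opposite balance.

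The translation lists differed from each other. Of 72 cytosolic ribosomal protein genes 13 rose (18.1%) and 3 fell (4.17%), of 38 translation initiation factors 14 rose (36.8%) and 7 fell (18.4%), and of 37 genes of rRNA processing in the nucleolus 11 rose (29.7%) and 6 fell, against 21.8% and 21.3% of all genes. After GC correction 11 of 71, 12 of 38 and 10 of 37 rose and 9, 2 and 3 fell. Against the 72-hour controls 1 ribosomal protein gene rose and 14 fell (median -0.35), and none of the initiation factors rose and 3 fell (median -0.14). The number of ribosomal protein genes that rose was 5 without the first control_6d library and 33 without the second, that of the initiation factors 3 and 16, and that of the nucleolar genes 8 and 18. RPL13A rose from 411 and 521 to 975 and 811 CPM (0.94, adjusted p = 0.00156) and RPS27 fell from 68.6 and 96.9 to 49.6 and 41.4 CPM (-0.86, adjusted p = 0.00964). EIF4EBP1, the translation repressor, rose from 40.7 and 54.1 to 76.5 and 70.2 CPM (0.63, adjusted p = 0.012), and after GC correction the change was 0.01 (adjusted p = 0.939). EIF2B1 rose (0.80, adjusted p = 0.00873) in both fits. EIF1AX fell (-1.71, adjusted p = 4.3e-05), which shrank to -0.57 after GC correction (adjusted p = 0.00737) and to -0.22 against the 72-hour controls (adjusted p = 0.48). In the nucleolar list RRP12 rose (1.11, adjusted p = 0.00141) and GAR1 fell (-1.02, adjusted p = 0.00279) in both fits, while nucleolin NCL (-0.61, adjusted p = 0.0391) and NOP56 (0.66, adjusted p = 0.0314) were called only without the correction.

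Because the study paired CDK4/6 inhibition with PRMT5 inhibition, splicing factors and arginine methyltransferases were also read. Of 62 splicing factor genes 20 fell and 2 rose (median -0.21), which is 32.3% down-regulated and 3.23% up-regulated against 21.3% and 21.8% of all genes. After GC correction 17 of 61 fell and 3 rose, and 10 fell and none rose in both fits. Without the first control_6d library 22 fell and none rose, and without the second 27 fell and 19 rose. LSM5, a subunit of the U6 snRNP, fell from 86.0 and 54.6 to 23.9 and 19.6 CPM (-1.69, SE 0.22, adjusted p = 5.36e-05), shrinking to -0.62 after GC correction (adjusted p = 0.00637) and to -0.04 against the 72-hour controls (adjusted p = 0.928). SRSF1 (50.3 and 83.6 against 81.4 and 72.9 CPM, adjusted p = 0.504) and U2AF2 (42.9 and 72.9 against 69.7 and 68.4 CPM, adjusted p = 0.404) did not pass. PRMT5 rose from 4.62 and 7.67 to 10.7 and 8.74 CPM (0.66, adjusted p = 0.0477), a call lost after GC correction (0.26, adjusted p = 0.302). Its partner WDR77 rose in both fits, from 16.8 and 23.3 to 39.5 and 36.9 CPM (0.93, adjusted p = 0.00162). MDM4, whose splicing depends on PRMT5, fell from 240 and 165 to 123 and 110 CPM (-0.80, adjusted p = 0.00665, and -0.44 after GC correction, adjusted p = 0.0385). Of 14 genes in this list 4 rose and 3 fell (28.6% and 21.4%), 2 of 13 rose and 3 fell after GC correction, 2 rose and 2 fell without the first control_6d library, and 6 rose and 5 fell without the second.

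Single libraries decided some calls of the first fit, given here as log2 fold changes without the library named. Without the first control_6d library CDK4 (0.35), CTSD (0.91), DDIT3 (0.80), HLA-DMA (-0.77), IL1B (0.80), CCL2 (1.17), NCL (-0.58), NOP56 (0.30), PRMT5 (0.34) and ATRIP (0.38) no longer passed. Without the second, besides TK1, FOXM1 and PLK1, the calls of CEBPB (-0.44), RPS27 (-0.59) and GDF15 (0.51) were lost. Without the first CDK4/6i_6d library B2M (0.52), HK2 (0.28), EIF2B1 (0.75) and EIF4EBP1 (0.57) did not pass, and without the second IL1A (0.58), IGFBP7 (-0.59), PMEL (1.10) and MDM4 (-0.72). In the other direction, genes described above as not passing did so without a control library. Without the first, these were DUSP6 (0.80), E2F1 (-0.62), MCM2 (-0.82), MCM5 (-0.51), CDC6 (-0.52), AXL (-0.60), IL8 (0.97), ITGB3 (0.58), GLB1 (0.40), HIST1H2AC (-0.77) and TYMS (-0.56). Without the second, they were ATF4 (0.65), PHGDH (0.62), CCND3 (0.86), CDC25B (0.82), NGFR (2.27), SRSF1 (0.62), U2AF2 (0.69) and TYR (-1.69), and MYC (0.94) passed without the second CDK4/6i_6d library. Calls that held but moved by over 1.5 times included MMP8 (1.32) and NRG1 (-1.32) without the first CDK4/6i_6d library, RPLP0P2 (2.19), SEMA4A (2.72) and ADAMTS5 (-2.86) without the second, EPPK1 (3.02) and MAP2 (-2.89) without the first control_6d library, and CDKN1A (1.97), LIF (2.34), PLK3 (2.26) and HIST2H3C (-2.72) without the second.

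**Figure D4:**
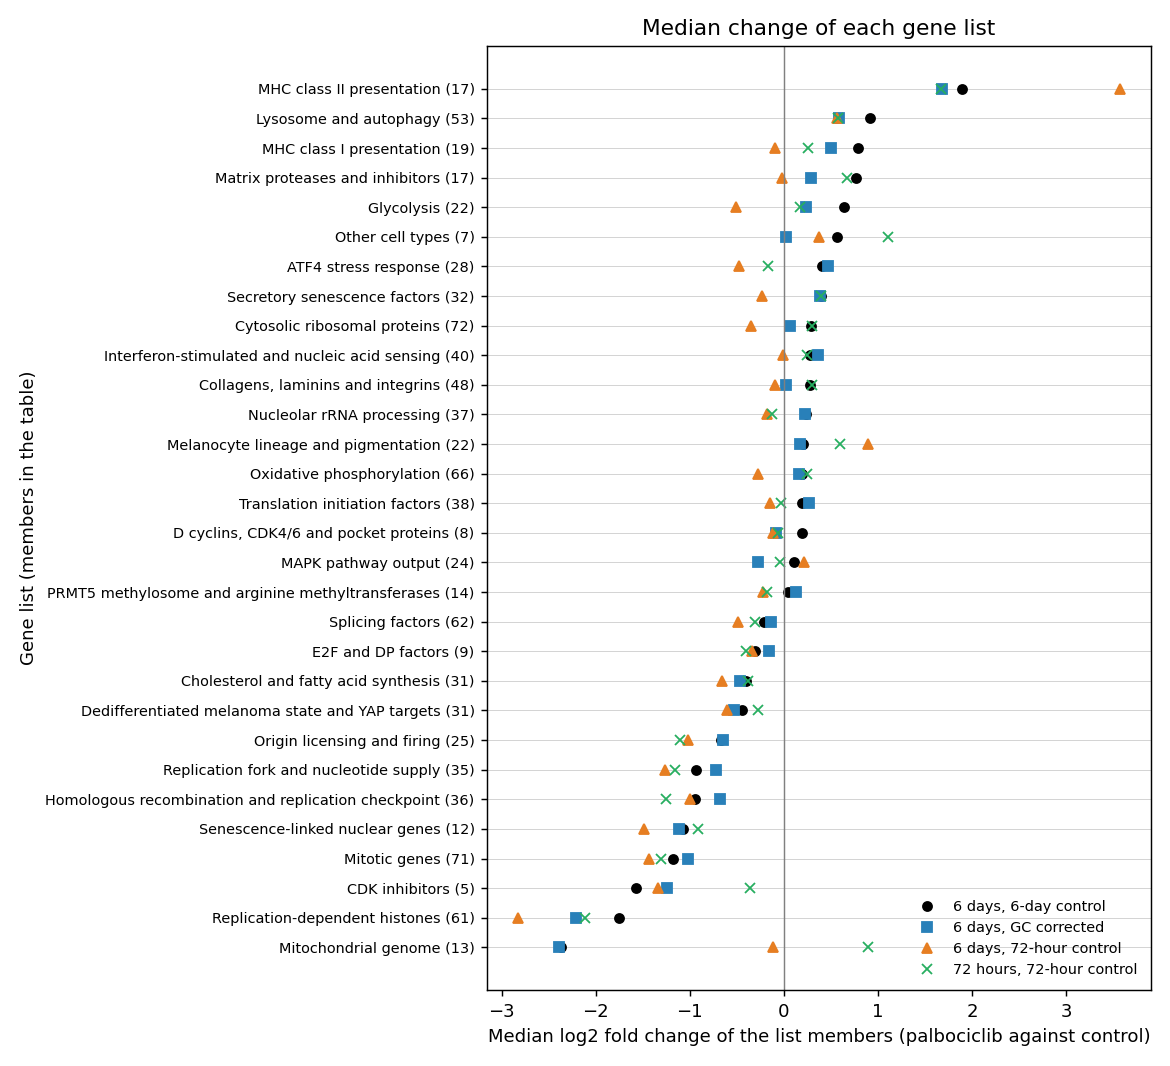
Median log2 fold change (x axis) of the gene lists (y axis, with the number of members in the table) for CDK4/6i_6d against control_6d (circles), the same after GC correction (squares), CDK4/6i_6d against the 72-hour controls (triangles) and palbociclib against control at 72 hours (crosses). The MHC class II list stays at 1.67 or more and the mitotic list at -1.02 or less in all 4, while glycolysis and the mitochondrial genome shift with the control used.

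Over all genes, the largest rise called in both fits was in PTGS2, which encodes the prostaglandin synthase COX-2, from 2.32 and 1.31 to 36.5 and 38.2 CPM (4.35, SE 0.33, adjusted p = 1.24e-06). HLA-DQA2, a near copy of HLA-DQA1, followed (0.22 and 0.34 against 6.03 and 4.77 CPM). TAC1, the precursor of substance P, differed between the treated libraries (0.96 and 0.94 against 8.85 and 26.9 CPM), as did TCN1, a vitamin B12 carrier (3.84 and 2.25 against 79.6 and 34.3 CPM), with rises of 4.23 and 4.22. The others were the glutamate receptor subunit GRIK4 (4.15), the transporter SLC6A13 (4.03), the cytolinker EPPK1 (3.93), the ribosomal pseudogene RPLP0P2 (3.50), the semaphorin SEMA4A (3.49) and the keratinocyte envelope gene SPRR2D (3.43). All of these were under 1 CPM in both controls.

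The largest falls were of other kinds. MIR3687 and MIR3648 are microRNA hairpin genes annotated within ribosomal DNA, which is repeated in the genome. MIR3687 went from 113 and 207 to 0.09 and 0.50 CPM (-9.05, SE 0.59, adjusted p = 3.84e-07), and MIR3648 from 84.0 and 149 to 3.29 and 5.22 CPM (-4.77, adjusted p = 2.69e-06). In the 72-hour libraries, treated and control, MIR3687 ranged from 1179 to 3127 CPM. KDM1A, which encodes the histone demethylase LSD1, had 54 and 81 reads in control_6d and 0 and 3 reads in CDK4/6i_6d. Its treated libraries were at the floor of 3 counts, which makes it at least 25.8-fold lower. At 72 hours KDM1A did not differ detectably between drug and control (-0.01). DMC1, a meiotic recombinase, fell from 2.73 and 2.99 to 0.14 and 0.17 CPM (-4.15, adjusted p = 6.6e-06), and at 72 hours by 4.12 as well. ANKRD30A (-4.12), the growth factor PTN (-3.92) and the microtubule protein MAP2 (-3.85) completed the group with the mitochondrial MT-ND3, MT-ATP8 (-4.05) and MT-ATP6.

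At 72 hours the same drug dose in the same line called 6.22% of genes up-regulated and 7.11% down-regulated. A test of the difference between the 6-day and the 72-hour change passed for 36 genes that were higher at 6 days (0.174%) and 188 that were lower (0.908%). No member of the 4 lists of licensing, fork, mitotic and recombination genes was among these 224. The mitotic genes had a median change of -1.31 at 72 hours, with 67 of 71 down-regulated, beside -1.18 at 6 days. Class II genes had a median of 1.67 at 72 hours with 9 of 17 up-regulated, and HLA-DPB1 alone in that list was higher at 6 days than at 72 hours (1.90 against 0.39, adjusted p of the difference = 0.0434). Lysosomal genes had 16 of 53 up-regulated at 72 hours and 33 at 6 days, yet no member passed the test of the difference. Of 13 mitochondrial genes 12 passed it, all lower at 6 days. In the ATF4 list ASNS fell at 72 hours (-1.06, adjusted p = 0.00208) and did not pass at 6 days without the GC correction (0.32), a difference of 1.38 (adjusted p = 0.023), and the serine synthesis enzyme PHGDH behaved alike (-1.12 at 72 hours and 0.29 at 6 days, adjusted p of the difference = 0.0236). Time on the drug and library set cannot be told apart here, since the 6-day and 72-hour libraries of A375 belong to different sets.

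**Figure D5:**
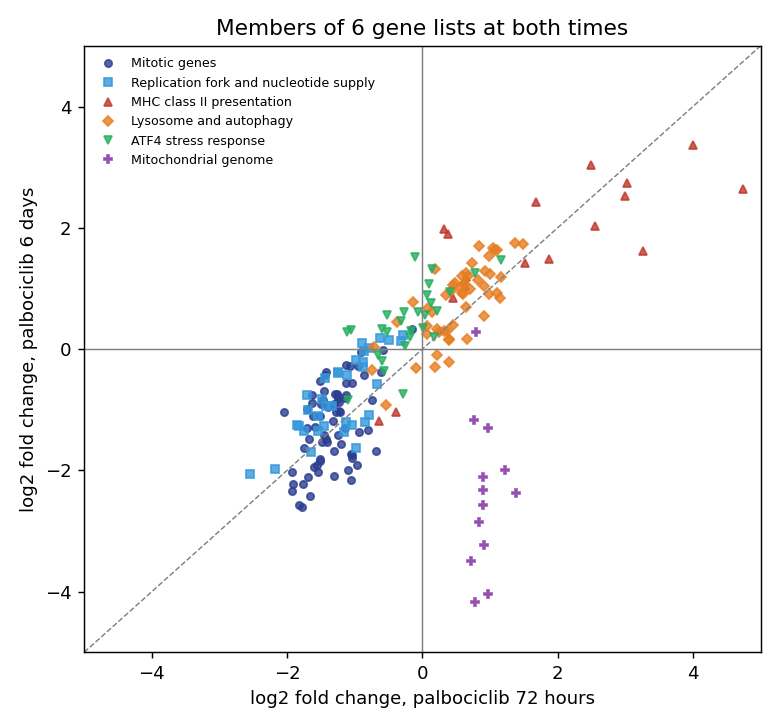
Log2 fold change at 6 days (y axis) against that at 72 hours (x axis) for the members of 6 gene lists, each point a gene and each time set against its own control libraries, with the dashed line marking equal change. The medians of the mitotic and fork lists are below 0 at both times and those of the class II and lysosomal lists above 0. Single members depart from this, such as RFXAP of the class II list, at -0.63 at 72 hours and -1.18 at 6 days. Of the mitochondrial genes 12 are above 0 at 72 hours and below 0 at 6 days.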

How the data were processed

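Poly-A RNA of A375 and CHL1 cells was sequenced in 18 libraries. The deposited values are counts of reads per gene, made by the authors with HISAT on GRCh37 and HTSeq at its default settings, after a filter on low expression. Strandedness is not given in the sources used here. The 8 CHL1 libraries entered 1 alternative only. The 10 A375 libraries were fitted together with edgeR 4.0.16 (quasi-likelihood test, TMM scaling) in R 4.3.3. Their 5 groups were control and palbociclib at each time and the group given the PRMT5 inhibitor. The p-values were adjusted by Benjamini-Hochberg over 20705 genes, with 0.05 as the threshold. CPM are these counts scaled to the TMM-adjusted size of each library. The GC correction used a loess curve (span 0.4) on transcript GC content over 13444 of the 15413 genes whose mean reached 1 CPM. Fits were tested on simulated data. DESeq2 1.42.0 and limma 3.58.1 gave alternatives. Named genes were those chosen for their role and, in each list and over all genes, the largest changes with a mean of at least 1 CPM, groups that did not overlap and the same call in both fits. Other genes, the 2 promoters printed for each motif among them, were chosen after their values were seen. Genes on chromosome 8 were not considered for these promoters. Members and lists were chosen with earlier results of these data known. MLANA and SOX10 were not analysed here.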

Additional observations from a re-analysis of the deposited data

Results flagged for a closer look

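For 13 of the named genes the change at 6 days differed from the change at 72 hours in the test of the difference itself (edgeR's quasi-likelihood test, adjusted over all genes). The 6-day and 72-hour libraries belong to different sets, so time and set cannot be told apart. The difference, as log2 fold change at 6 days minus that at 72 hours, was -9.70 for MIR3687, -5.54 for MIR3648 and -5.52 for KDM1A. It was -5.02 for MT-ATP8, -4.95 for MT-ND3 and -4.21 for MT-ATP6 of the mitochondrial genome. STARD4 differed by -2.54, ANKRD30A by -2.95, LSM5 by -1.64 and NDUFA5 by -1.56. FN1 differed by -1.45, since it rose at 72 hours (1.51) and not at 6 days (0.07). The differences in the other direction were 6.98 for TAC1 and 1.38 for ASNS. With the GC correction FN1, ANKRD30A, LSM5, NDUFA5 and TAC1 no longer passed, with adjusted p-values of 0.0511, 0.114, 0.0593, 0.0932 and 0.0664.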

How the results depend on the processing

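No paired analysis was possible because the GEO labels give the 6-day libraries no replicate numbers, and nothing ties the replicate numbers of the study's own listing to them or says that a shared number marks a shared culture. The 8928 DEGs became 5862 with the 4 compared libraries fitted alone, 5869 with the GC correction, 5914 with GC and length, 3266 with the GC correction and those 4 libraries alone, 4664 with the GC correction and without the first control library, 5706 at an adjusted p under 0.01 and 4807 where the log2 change also had to reach 1 in either direction. Leaving out each library gave 6079 to 11491. Of the GC-corrected 5869, 3266 were left with the 4 libraries alone. The 224 genes that differed between 6 days and 72 hours became 341 with median-of-ratios scaling, 1146 with DESeq2 and 56 to 7019 with each library left out, the 7019 without the second control_6d library and 449 without the first. Median-of-ratios scaling moved the up-regulated share of DEGs from 50.5% to 45.6%. Set against the 72-hour controls, 13 lists with a median above 0 turned to one below it: MHC class I (-0.09), glycolysis (-0.50), secretory factors (-0.23), oxidative phosphorylation (-0.28), ribosomal proteins (-0.35), initiation factors (-0.14), ATF4 response (-0.47), nucleolar genes (-0.18), matrix proteases (-0.02), collagens and integrins (-0.10), interferon genes (-0.01), D cyclins (-0.12) and the PRMT5 list (-0.22). These genes also turned direction: ASNS (-0.71), ATF4 (-1.13), CDK4 (-0.86), EIF4EBP1 (-0.16), FN1 (-1.86), GDF15 (-1.02), HK2 (-0.32), ISG15 (-0.23), ITGA9 (0.79), NDUFV1 (-0.24), NOP56 (-0.27), OASL (-1.97), PPM1D (0.10), PRMT5 (-0.51), RFXAP (0.07), RPL13A (-0.29), SRSF1 (-0.99) and TYR (5.67). With the GC correction the medians of the D cyclin (-0.08) and MAPK (-0.27) lists turned below 0 and GDF15 turned to -0.03. In the first fit, without the second control_6d library, MCM5 turned to 0.54. The causes were not tested. Median-of-ratios scaling kept the call of 122 of 127 named genes and DESeq2 of 123.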

Other observations

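Genes outside the lists, chosen after their values were seen, also changed in both fits. HMOX1, the haem-degrading enzyme induced by oxidative stress, rose from 3.53 and 11.8 to 33.5 and 58.2 CPM (2.58, edgeR adjusted p = 0.000263), and OSGIN1, another oxidative stress gene, from 1.24 and 4.40 to 11.9 and 18.1 CPM (2.41, adjusted p = 0.000323). The xenobiotic enzyme CYP1A1 rose from 2.35 and 5.18 to 21.1 and 40.4 CPM (3.03, adjusted p = 2.52e-05). Among secreted ligands, WNT9A rose from 3.93 and 17.3 to 79.3 and 112 CPM (3.17, adjusted p = 0.00011), BMP4 from 1.77 and 3.50 to 16.8 and 19.5 CPM (2.79, adjusted p = 2.32e-05) and IL19 from 7.37 and 6.08 to 30.4 and 36.6 CPM (2.31, adjusted p = 2.6e-05). The lymphatic growth factor VEGFC fell from 174 and 138 to 22.2 and 28.5 CPM (-2.62, adjusted p = 2.81e-06).

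Falls outside the lists, of genes also chosen after their values were seen, included the following. The E2F-linked factor ZNF367 fell from 103 and 81.9 to 9.17 and 10.9 CPM (-3.21, adjusted p = 3.84e-07), the protease FAM111B from 72.5 and 49.3 to 8.45 and 7.59 CPM (-2.92, adjusted p = 1.31e-06) and the lamina-associated protein TMPO from 589 and 447 to 100.4 and 86.8 CPM (-2.47, adjusted p = 2.45e-06). The chromatin protein DEK fell from 631 and 353 to 75.7 and 69.3 CPM (-2.76, adjusted p = 2.77e-06) and the microtubule regulator STMN1 from 229 and 160 to 38.7 and 32.4 CPM (-2.45, adjusted p = 2.77e-06). Of amino acid transport and synthesis genes whose change differed from that at 72 hours, SLC1A4 rose from 44.7 and 47.7 to 121 and 152 CPM (1.56, adjusted p = 1.73e-05) and PYCR1 from 12.2 and 15.3 to 29.4 and 26.8 CPM (1.03, adjusted p = 0.000592).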
